A study of Mus musculus with 10 samples.

Results

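The 10 genes described here mark an activated, or mature, dendritic cell: *Ccr7*, *Fscn1*, *Cd83*, *Cd80*, *Cd86*, *Cd40*, *Ccl22*, *Relb*, *Il12b* and *Cd274*. They were chosen by name, as maturation and costimulation genes, with earlier results of these data known. All 10 were found among the 16771 genes listed in each library. They were followed by RNA-seq across 10 mouse bone marrow libraries in 5 groups of 2 from C57BL/6 mice, whose libraries the series' design text calls biological replicates. In mutant hematopoietic stem and progenitor cells (HSPC, isolated as lineage-negative marrow cells) the groups were Npm1c, which carries Npm1flox-cA/+ with Mx1-Cre+; Flt3-ITD, which carries Flt3ITD/+; and the double mutant (DM), which carries Npm1flox-cA/+, Flt3ITD/+ and Mx1-Cre+. Wild-type (WT) neutrophils and WT HSPC carried neither allele.

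Npm1c is the cytoplasmic mutant of nucleophosmin and Flt3-ITD the internal tandem duplication of the Flt3 receptor, which are often found together in acute myeloid leukemia. Mx1-Cre is driven by an interferon-inducible promoter. It was carried by the Npm1c and DM groups and is not listed for the Flt3-ITD and WT groups, so the allele and the Cre cannot be told apart in Npm1c HSPC. The same limit holds where DM HSPC is set against WT or Flt3-ITD HSPC. Sources used here do not give the animals' age, the time from Cre induction or any pooling.

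Dendritic cells present antigen to T cells, and resting ones do so with little costimulation. On activation they raise the surface proteins Cd80, Cd86 and Cd40, turn on NF-kB subunits such as Relb, switch to the chemokine receptor Ccr7 that leads them to lymph nodes, and secrete cytokines such as interleukin 12. Cd274 (PD-L1) belongs to the same family as Cd80 and Cd86 but restrains T cells. Several of the 10 genes are also used by other cells, such as Cd86 and Cd40 by B cells and macrophages and Ccr7 by T cells.

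Values are RPKM, in which the reads of a gene are divided by its length and by the library's total. The library totals behind them, recovered from the steps of the values, were 40783015 to 57824373 reads. Of these, 60.9% to 81.3% lay on the listed genes. Changes are differences of log2(RPKM + 0.5) after median-of-ratios scaling, with their standard error (SE), from limma with Benjamini-Hochberg adjustment over all genes tested at 0.05. The added 0.5 RPKM shrinks the change of a low gene, so ratios of recovered reads are also given, with exact 95% intervals that cover counting error only. On the deposited scale the median of all genes tested lay 0.26 (Npm1c), 0.14 (Flt3-ITD), 0.34 (DM) and 0.70 (neutrophils) log2 units under WT HSPC, and after scaling within 0.02 of 0.

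The label of the DM group was checked against defining markers. The libraries labelled DM HSPC held 367 and 361 summed RPKM of a list of 10 conventional dendritic cell markers, against 6.47 to 10.03 in the other 6 HSPC libraries. *Xcr1*, a receptor of type 1 conventional dendritic cells, averaged 107.7 RPKM in DM HSPC, against 0.161 in Npm1c HSPC, 0.356 in Flt3-ITD and 0.239 in WT HSPC. Of the 5 stem and progenitor markers tested, 4 fell in DM HSPC against WT HSPC and *Ly6a*, which encodes Sca-1, rose, at 5.12 RPKM in DM HSPC and 1.92 RPKM in WT HSPC. All 8 of the list summed to 29.3 and 29.5 RPKM in DM HSPC, against 99.7 and 98.7 RPKM in WT HSPC. In DM against WT HSPC, 38.6% of all genes tested rose and 38.3% fell. *Cd34* averaged 3.32 RPKM in DM HSPC, against 15.5 RPKM in WT HSPC. By these markers the DM libraries stood apart from the other lineage-negative libraries, and whether their label and the lineage-negative gate held was not tested. DM HSPC below means the libraries with that label. In bulk RNA, more cells of a type and more RNA per cell cannot be told apart, and what share of each change came from either was not tested. The libraries labelled neutrophils held 98784 and 98506 summed RPKM of 10 neutrophil markers, against 77.8 and 59.2 in WT HSPC.

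*Ccr7* (ENSMUSG00000037944, chr11:99144196-99155077, minus strand, GRCm38) encodes the receptor that guides mature dendritic cells along Ccl19 and Ccl21. It was at 69.4 and 67.9 RPKM in DM HSPC, against 0.301 and 0.386 in Npm1c HSPC, 0.756 and 0.554 in Flt3-ITD, 0.385 and 0.365 in neutrophils and 0.430 and 0.315 RPKM in WT HSPC. Both DM libraries stood above every other library. The change in DM against WT HSPC was 6.57 ± 0.09 on the log2 scale (SE, adjusted p = 5.55e-09, limma). By recovered reads the ratio was 234 (interval 188 to 293).

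*Fscn1* (ENSMUSG00000029581, chr5:142960343-142973185, plus strand) encodes fascin, an actin-bundling protein that shapes the dendrites of mature cells. Its level was 16.2 and 16.1 RPKM in DM HSPC, against 0.0269 and 0.0319 in Npm1c HSPC, 0.132 and 0.0868 in Flt3-ITD, 0.0777 and 0.0737 in neutrophils and 0.0621 and 0.0251 RPKM in WT HSPC. The DM libraries again did not overlap any other library. *Fscn1* rose by 5.12 ± 0.06 on the log2 scale in DM against WT HSPC (SE, adjusted p = 2.64e-09, limma), a ratio of 472 in reads (342 to 670). The WT value rests on 26 and 11 reads.

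*Cd83* (ENSMUSG00000015396, chr13:43784775-43803132, plus strand) encodes the surface marker by which mature dendritic cells are classically identified, and which stabilizes Cd86 and MHC class II at the surface. Of the 10 genes it reached the highest deposited level, 79.6 and 74.7 RPKM in DM HSPC, against 0.130 and 0.183 in Npm1c HSPC, 0.349 and 0.186 in Flt3-ITD, 0.378 and 0.337 in neutrophils and 0.304 and 0.324 RPKM in WT HSPC. Its change in DM against WT HSPC was also the largest of the 10 on the log2 scale, 6.82 ± 0.09 (SE, adjusted p = 5.55e-09, limma), place 12 by size of rise among 9702 genes tested. In reads it was not the largest, with a ratio of 310 (247 to 394), against 534 for *Il12b*, 472 for *Fscn1* and 448 for *Ccl22*.

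Among the costimulatory ligands, *Cd86* (ENSMUSG00000022901, chr16:36603869-36666081, minus strand) binds Cd28 and Ctla4 on T cells. It was at 31.0 and 30.3 RPKM in DM HSPC, against 0.0473 and 0.0673 in Npm1c HSPC, 0.147 and 0.0932 in Flt3-ITD, 1.72 and 1.54 in neutrophils and 0.181 and 0.136 RPKM in WT HSPC. The order of its levels was DM, neutrophils, WT HSPC, Flt3-ITD and Npm1c, and the WT and Flt3-ITD libraries overlapped. The rise in DM against WT HSPC was 5.78 ± 0.06 (SE, log2, adjusted p = 2.43e-09, limma), and 245-fold in reads (198 to 308).

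*Cd80* (ENSMUSG00000075122, chr16:38455561-38496335, plus strand), which shares those receptors, had another pattern. It was at 6.80 and 6.50 RPKM in DM HSPC, against 0.109 and 0.296 in Npm1c HSPC, 0.0644 and 0.0939 in Flt3-ITD, 7.39 and 6.91 in neutrophils and 0.160 and 0.122 RPKM in WT HSPC. Neutrophils and DM HSPC thus carried nearly the same deposited level of *Cd80*, with the neutrophil libraries a little higher and no overlap. Against WT HSPC it rose by 3.68 ± 0.12 on the log2 scale in DM HSPC (SE, adjusted p = 2.91e-07, limma). *Cd40* (ENSMUSG00000017652, chr2:165055627-165072948, plus strand), the receptor through which helper T cells activate dendritic cells, was high in DM HSPC alone. Its levels were 2.29 and 2.17 RPKM in DM HSPC, against 0.0172 and 0.0616 in Npm1c HSPC, 0.0796 and 0.0395 in Flt3-ITD, 0.0455 and 0.0678 in neutrophils and 0.0383 and 0.0504 RPKM in WT HSPC. Outside DM HSPC the 4 groups overlapped for *Cd40*, and its change in DM against WT HSPC was 2.48 ± 0.06 (SE, log2, adjusted p = 9.82e-08, limma) or 63.3-fold in reads (45.9 to 89.8).

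*Cd274* (ENSMUSG00000016496, chr19:29367455-29388095, plus strand), the ligand of the inhibitory receptor Pdcd1, was the one gene of the 10 already above 1 RPKM in all 8 HSPC libraries. It was at 6.63 and 6.43 RPKM in DM HSPC, against 1.51 and 1.35 in Npm1c HSPC, 1.56 and 1.38 in Flt3-ITD, 3.72 and 3.68 in neutrophils and 1.97 and 1.88 RPKM in WT HSPC. On the deposited scale the order was DM, neutrophils, WT HSPC and then both single mutants, whose libraries overlapped. After scaling, neither single mutant passed against WT HSPC (adjusted p = 0.199 in Npm1c and 0.109 in Flt3-ITD, limma). Its rise in DM against WT HSPC was the smallest of the 10, 1.86 ± 0.06 on the log2 scale (SE, adjusted p = 3.13e-07, limma), or 4.28-fold in reads (3.94 to 4.65).

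*Ccl22* (ENSMUSG00000031779, chr8:94745590-94751699, plus strand) encodes a chemokine that draws Ccr4-bearing T cells. It was at 21.4 and 21.7 RPKM in DM HSPC, against 0.0142 and 0.0426 in Npm1c HSPC, 0.160 and 0.0837 in Flt3-ITD, 0.0656 and 0.0355 in neutrophils and 0.0414 and 0.0793 RPKM in WT HSPC. Only DM HSPC held more than 23 reads of it in a library, with 2490 and 2752 reads. The change in DM against WT HSPC was 5.49 ± 0.07 (SE, log2, adjusted p = 4.91e-09, limma), and the ratio in reads was 448 (283 to 757).

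*Il12b* (ENSMUSG00000004296, chr11:44400063-44414033, plus strand) encodes the p40 subunit shared by interleukins 12 and 23. It was at 6.88 and 6.93 RPKM in DM HSPC, against 0.0147 and 0.00491 in Npm1c HSPC, 0.163 and 0.0158 in Flt3-ITD, 0.0129 and 0.00614 in neutrophils and 0.0286 and 0.00456 RPKM in WT HSPC. Behind these stood 1158 and 1272 reads in the DM libraries, against 34 reads in Flt3-ITD replicate 1 and 1 to 6 reads in each of the other 7. The ratio of DM over WT HSPC was therefore loosely bounded, at 534 in reads (259 to 1331), while the fitted change was 4.01 ± 0.10 (SE, log2, adjusted p = 9.51e-08, limma).

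*Relb* (ENSMUSG00000002983, chr7:19606217-19629438, minus strand), the NF-kB subunit of the noncanonical branch, was at 2.61 and 2.44 RPKM in DM HSPC, against 0.0767 and 0.0400 in Npm1c HSPC, 0.0920 and 0.0674 in Flt3-ITD, 0.427 and 0.429 in neutrophils and 0.0922 and 0.0975 RPKM in WT HSPC. Neutrophils came next after DM HSPC, with no overlap with any HSPC library. *Relb* rose by 2.52 ± 0.06 on the log2 scale in DM against WT HSPC (SE, adjusted p = 6.36e-08, limma), or 33.6-fold in reads (29.1 to 38.9).

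**Figure D1:**
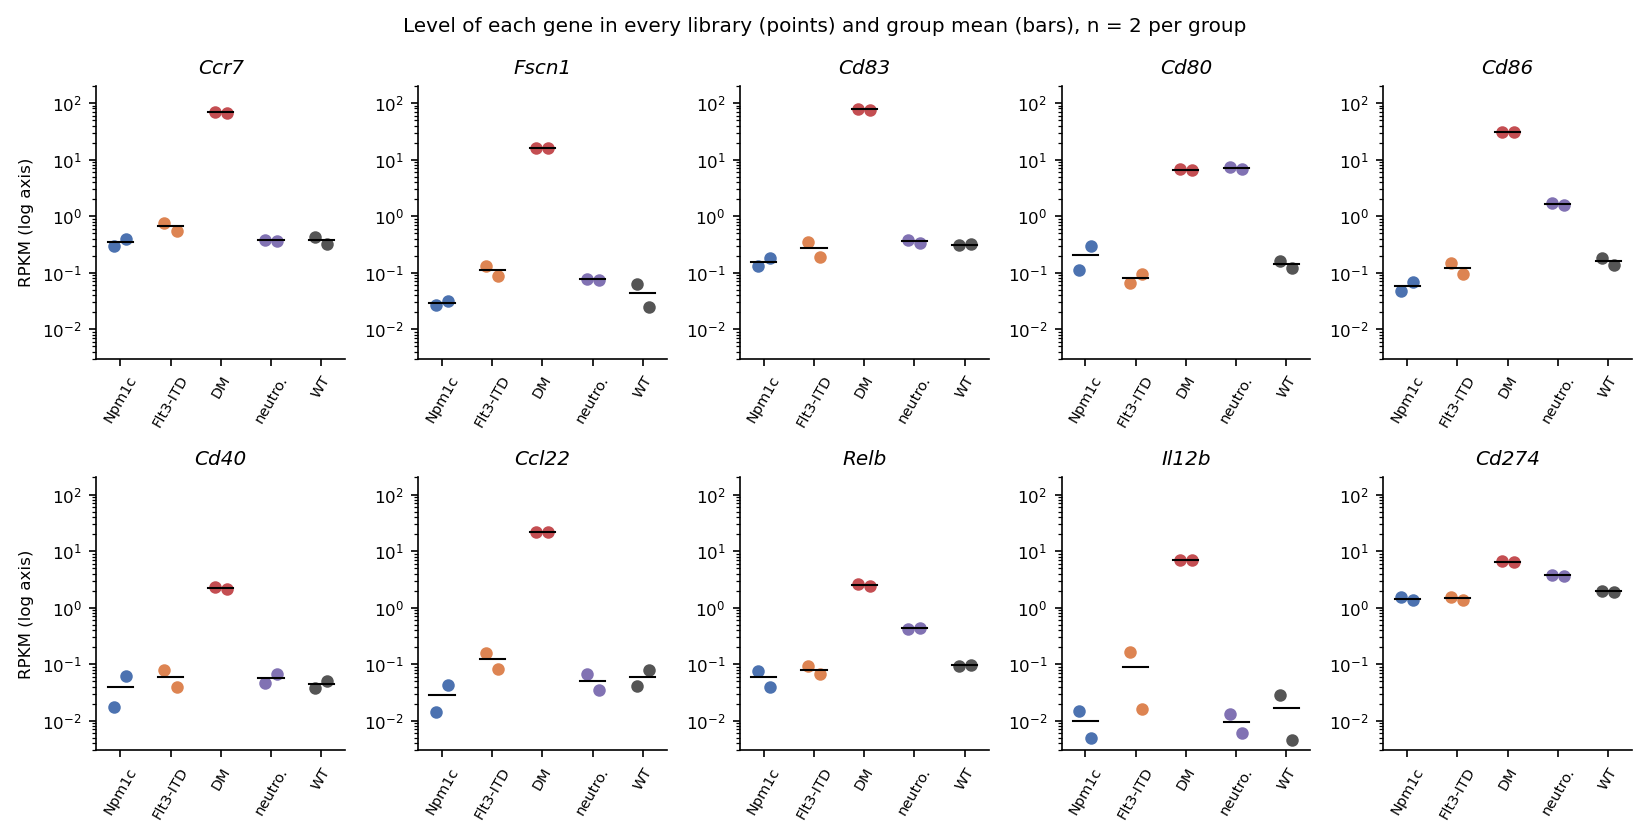
Level of each of the 10 genes in RPKM on a log axis, in Npm1c HSPC, Flt3-ITD and DM HSPC, WT neutrophils (neutro.) and WT HSPC (WT); points are libraries and bars are group means, n = 2 per group. The DM points of *Ccr7* lie at 69.4 and 67.9 RPKM, and only for *Cd80* does another group, neutrophils at 7.39 and 6.91 RPKM, lie above DM.

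The order of levels among the genes depends on the gene length used. The lengths implied by the deposited values were a median of 1.62 times the merged exon length in GENCODE M21, over 12134 genes. For *Relb* the implied length was 18616 bases against 3885 bases of merged exons, for *Cd40* 7552 against 3406, and for *Cd80* 1696 against 3703. Dividing the same recovered reads by the merged exon length gave mean DM values of 68.6 RPKM for *Ccr7*, 64.1 for *Cd83*, 40.5 for *Fscn1*, 39.4 for *Cd86* and 24.3 for *Ccl22*. The other values were 13.3 RPKM for *Il12b*, 12.1 for *Relb*, 6.52 for *Cd274*, 4.95 for *Cd40* and 3.05 for *Cd80*. By this division *Relb* stands above *Cd80* and *Cd274*, *Fscn1* above *Cd86* and *Ccl22*, and *Ccr7* above *Cd83*, while *Cd80* comes last. The bases on which the reads were counted are not given, so these are not levels measured on merged exons. Which order holds was not tested. Ratios between groups for 1 gene do not depend on its length.

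Against WT HSPC, 10 of 10 genes rose in DM HSPC, where 38.6% of the 9702 genes tested rose and 38.3% fell. Of the 10 genes, 9 reached the filter of 1 RPKM in 2 libraries only through the DM libraries and so had to differ. With no filter, 10 of 10 also rose, where 32.4% of 16771 genes rose and 28.7% fell. Since the 10 genes were chosen with earlier results of these data known, these counts and the places below are a description. By size of rise, 5 of the 10 lay among the 100 largest rises of all genes tested, 9 among the 500 largest and 10 among the 1000 largest. Without the scaling the split of calls over all genes was 2316 higher and 5719 lower, and under quantile normalization it was 2866 and 5196. The median log2 change of all genes was then -0.34 and -0.22, against -0.01 after scaling, while that of the 10 genes was 4.39 and 4.33, against 4.56, and 10 of 10 were still higher.

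DM HSPC was also set against each single mutant. Against Npm1c HSPC, 10 of 10 genes were higher in DM HSPC, where 40.1% of all genes rose and 39.8% fell, with log2 changes from 1.96 (*Cd274*) to 7.04 (*Cd83*). Against Flt3-ITD HSPC, 10 of 10 were higher as well, with 39.3% of all genes up and 38.3% down, and changes from 2.02 (*Cd274*) to 6.85 (*Cd83*). These 3 comparisons share the DM libraries, through which alone 9 of the 10 genes reached the filter and so had to differ. The largest adjusted p among the 10 genes was 3.13e-07 against WT, 3.37e-07 against Npm1c and 2.65e-07 against Flt3-ITD (limma). Without the scaling, 3336 genes were higher and 4172 lower against Npm1c HSPC, and 2778 higher and 4736 lower against Flt3-ITD. Quantile normalization gave 2903 higher and 5308 lower against Npm1c HSPC, and 2877 higher and 5129 lower against Flt3-ITD.

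Whether the DM change exceeded the sum of the changes in the single mutants was tested as the interaction of both mutations on the log2 scale. It was above 0 for 10 of 10 genes, from 2.13 ± 0.09 (*Cd274*) to 7.07 ± 0.13 (*Cd83*; SE, largest adjusted p = 3.06e-06, limma), where it was above 0 for 38.2% and below 0 for 34.7% of all genes. Deposited values put it above 0 for 3800 and below 0 for 2680 genes, and quantile normalization for 2802 and 4790. Here too, 9 of the 10 genes reached the filter only through the DM libraries and so had to differ. The Npm1c allele and the Cre cannot be told apart in the interaction.

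**Figure D2:**
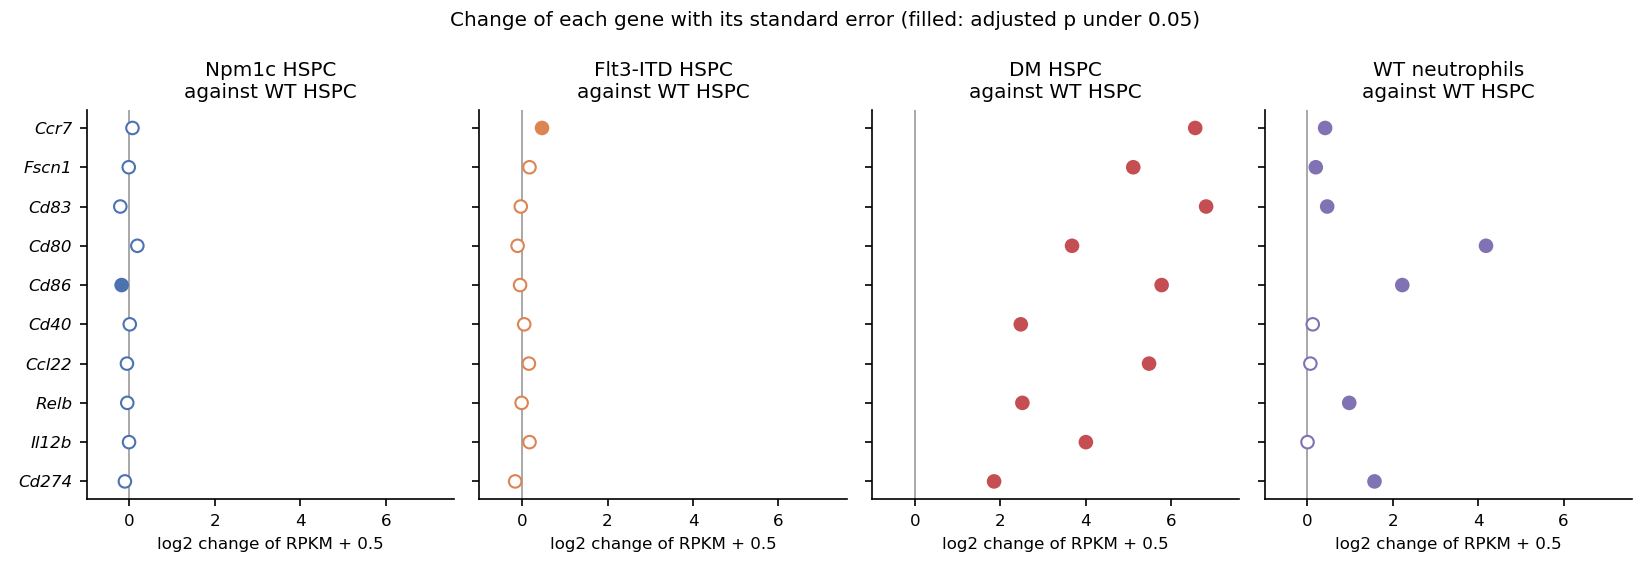
Change of each of the 10 genes against WT HSPC as a difference of log2(RPKM + 0.5), in Npm1c HSPC, Flt3-ITD and DM HSPC and in WT neutrophils; bars are standard errors, mostly hidden by the points, and filled points have an adjusted p under 0.05. DM changes lie between 1.86 (*Cd274*) and 6.82 (*Cd83*), while in Npm1c HSPC only *Cd86* is filled, and in Flt3-ITD HSPC only *Ccr7*.

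**Figure D3:**
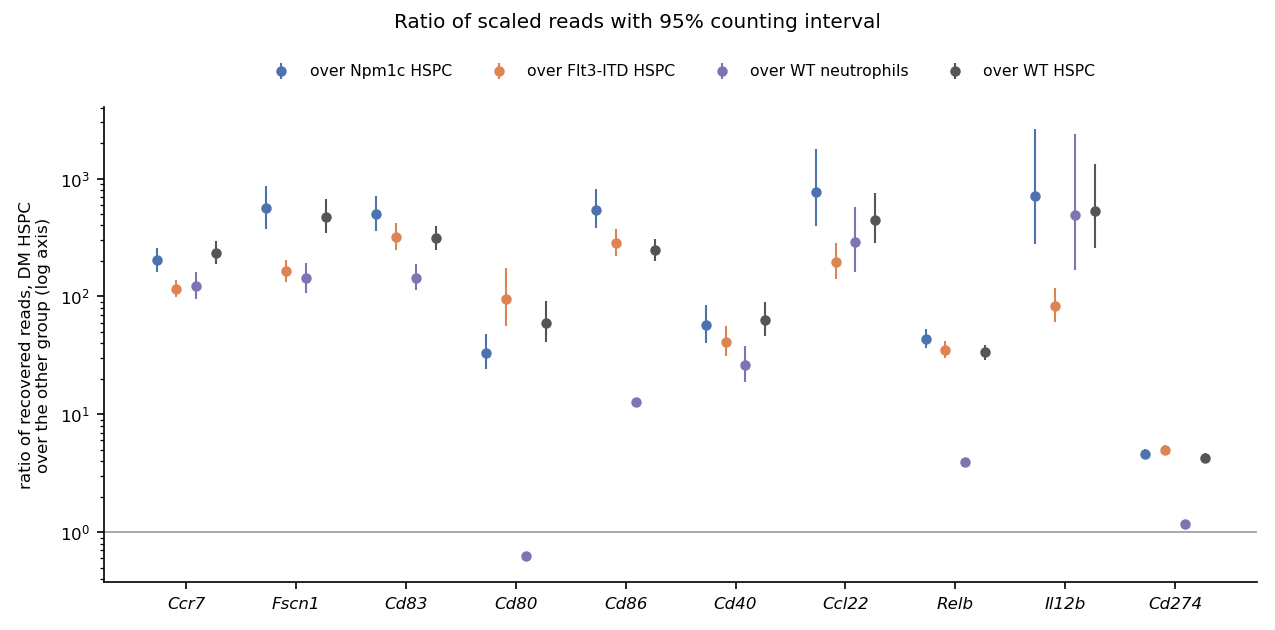
Ratio of scaled recovered reads in DM HSPC over each other group on a log axis, with 95% counting intervals, for the 10 genes; the gray line is a ratio of 1. *Il12b* has the widest intervals, 259 to 1331 over WT HSPC, and *Cd80* over neutrophils lies under 1, at 0.623.

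In Npm1c HSPC against WT HSPC, 0 of 10 genes rose and 1 fell, where 17.6% of all genes rose and 20.7% fell. *Cd86* fell by 0.18 on the log2 scale (SE 0.06, adjusted p = 0.0466, limma). In reads this was 29 over both Npm1c libraries, against 84 over both WT libraries, a scaled ratio of 0.451 (0.285 to 0.695). The call was lost when either WT library was left out (adjusted p = 0.215 without replicate 1 and 0.0908 without replicate 2) and when either Npm1c library was left out (0.160 without replicate 1 and 0.0951 without replicate 2). It was also lost under quantile normalization, with a pseudocount of 1 and with no filter, and over all alternatives the adjusted p ran from 0.018 to 0.215. *Cd83* differed by -0.22 ± 0.09 (SE, adjusted p = 0.0998, limma). The other 8 lay between -0.11 and 0.18 with adjusted p of 0.199 or more. In reads, Npm1c over WT HSPC was 0.619 (0.404 to 0.931) for *Cd83*, 0.764 (0.603 to 0.964) for *Relb* and 1.79 (1.06 to 3.06) for *Cd80*. *Cd80* had 10 reads in Npm1c replicate 1 and 27 in replicate 2. Apart from *Cd86*, the remaining genes had intervals that included 1, and all these intervals cover counting error only. Without Npm1c replicate 1, the change of *Cd80* was 0.38 on the log2 scale. The neutrophil markers summed to 88.5 RPKM in Npm1c replicate 1 and 410 RPKM in replicate 2. In WT HSPC they summed to 77.8 and 59.2 RPKM, and 3 of 10 were higher in Npm1c HSPC and 0 lower. On the deposited scale, 242 of all genes were higher and 5638 lower in Npm1c HSPC, and 3 of the 10 genes fell, with a median of -0.26 over all genes. Monocyte and macrophage markers summed to 45.2 and 41.6 RPKM in Npm1c HSPC, against 86.2 and 86.1 RPKM in WT HSPC, with 6 of 10 lower. The MHC class II genes summed to 27.4 and 27.8 RPKM in Npm1c HSPC, against 48.3 and 47.1 RPKM in WT HSPC, with 3 of 7 lower, and conventional dendritic markers to 6.47 and 6.64 RPKM in Npm1c HSPC, against 10.03 and 9.92 RPKM in WT HSPC, with 4 of 10 lower. The part of these cells in the *Cd86* and *Cd80* values was not tested.

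In Flt3-ITD HSPC against WT HSPC, 1 of 10 genes rose and 0 fell, where 8.10% of all genes rose and 9.81% fell. *Ccr7* rose by 0.47 ± 0.09 on the log2 scale (SE, adjusted p = 0.0174, limma), and both Flt3-ITD libraries lay above both WT libraries. In reads the ratio was 2.00 (1.51 to 2.66). Leaving out WT replicate 1 gave an adjusted p of 0.0646 and leaving out WT replicate 2 one of 0.114, in a range of 0.00545 to 0.114 over all alternatives. With only the groups compared it was 0.0779. *Fscn1* differed by 0.17 ± 0.06 (SE, adjusted p = 0.0739, limma) and *Cd274* by -0.16 ± 0.06 (SE, adjusted p = 0.109, limma), and the other 7 lay between -0.11 and 0.17. In reads, which the added 0.5 RPKM does not shrink, Flt3-ITD over WT HSPC was 2.88 (1.94 to 4.36) for *Fscn1*, 2.29 (1.26 to 4.31) for *Ccl22* and 6.41 (2.82 to 17.0) for *Il12b*. These intervals cover counting error only, and the 2 Flt3-ITD libraries of *Il12b* were far apart. Without Flt3-ITD replicate 2, 4 of the 10 genes passed. Deposited values gave 180 genes higher and 3033 lower, with a median of -0.14 over all genes. Flt3-ITD replicate 1, with its 34 reads of *Il12b* against 3 in replicate 2, also held more of the T and NK cell markers (70.5 against 23.6 summed RPKM) and of the monocyte markers (144 against 82.2). WT HSPC held 41.8 and 42.9 RPKM of the T and NK markers. In each of these Flt3-ITD and WT libraries only 1 of the 9 T and NK genes reached 1 RPKM. The T and NK sums thus rest mostly on 1 gene and do not follow the list as a whole. Neutrophil markers summed to 300 and 259 RPKM in Flt3-ITD HSPC, against 77.8 and 59.2 RPKM in WT HSPC, with 3 of 10 higher and 0 lower. What part T, NK or monocyte cells or neutrophils had in the values was not tested.

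WT neutrophils, a mature myeloid cell, carried some of the genes. Against WT HSPC, 7 of 10 rose and 0 fell, where 45.5% of all genes rose and 44.7% fell (10174 genes tested over all 10 libraries). *Cd80* rose by 4.18 ± 0.11 on the log2 scale, *Cd86* by 2.22 ± 0.06, *Cd274* by 1.57 ± 0.05 and *Relb* by 0.98 ± 0.05 (SE, largest adjusted p = 1.11e-07, limma). In reads these were ratios of 95.7 (65.4 to 146), 19.4 (15.5 to 24.7), 3.62 (3.30 to 3.97) and 8.49 (7.24 to 9.999). *Cd83* (0.46 ± 0.08), *Ccr7* (0.42 ± 0.08) and *Fscn1* (0.20 ± 0.05) passed with adjusted p of 0.000577, 0.00077 and 0.00347 (limma). On the deposited scale these 3 no longer passed, which left 4 of 10, and *Fscn1* turned sign under quantile normalization, at -0.0042. There, deposited values gave 2892 genes higher and 6391 lower, with a median of -0.70 over all genes.

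*Cd40*, *Ccl22* and *Il12b* did not pass in neutrophils, with changes of 0.13, 0.07 and 0.0034 and adjusted p of 0.0634, 0.324 and 0.972 (limma). *Cd40* passed narrowly with a pseudocount of 0.1, with only the groups compared and without neutrophil replicate 1, with a smallest adjusted p of 0.0441 (limma). Neutrophils held 36 reads of *Cd40*, 11 of *Ccl22* and 3 of *Il12b* over both libraries. In reads, the ratio of neutrophils over WT HSPC was 2.41 (1.49 to 3.91) for *Cd40*. It was 1.56 (0.664 to 3.48) for *Ccl22* and 1.09 (0.182 to 4.78) for *Il12b*, with intervals for counting error only. The neutrophil libraries also held 275 and 270.2 summed RPKM of monocyte and macrophage markers, against 86.2 and 86.1 in WT HSPC, and 31.1 and 31.2 RPKM of conventional dendritic markers, against 10.03 and 9.92. *Sirpa*, which neutrophils also express, gave 24.1 RPKM of that last sum, and *Xcr1* stood at 0.214 RPKM. The part of these cells was not tested.

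DM HSPC and neutrophils were not compared by a test, since the design sets neither against the other. Side by side on the deposited scale, *Cd80* averaged 6.65 ± 0.22 RPKM in DM HSPC and 7.15 ± 0.34 RPKM in neutrophils, and *Cd274* 6.53 ± 0.15 RPKM in DM HSPC and 3.70 ± 0.03 RPKM in neutrophils (SD, n = 2 each). *Relb* averaged 2.52 ± 0.12 RPKM in DM HSPC and 0.428 ± 0.0013 RPKM in neutrophils, and *Cd86* 30.7 ± 0.54 RPKM in DM HSPC and 1.63 ± 0.12 RPKM in neutrophils (SD, n = 2 each). After scaling, *Cd80* stood at 6.74 and 6.46 RPKM in DM HSPC and 10.96 and 10.2 RPKM in neutrophils, and *Cd274* at 6.57 and 6.39 RPKM in DM HSPC and 5.52 and 5.44 RPKM in neutrophils. For *Ccr7*, *Fscn1*, *Cd83*, *Cd40*, *Ccl22* and *Il12b*, the deposited neutrophil mean lay at or under 0.375 RPKM.

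Over the 10 libraries, the genes thus followed 3 patterns, given here as a description. *Ccr7*, *Fscn1*, *Cd83*, *Cd40*, *Ccl22* and *Il12b* were high in DM HSPC alone, and each pair of them had a Pearson r from 0.995 to 0.999 on the log2 scale. *Cd86* and *Relb*, with a second, lower level in neutrophils, had an r of 0.999. *Cd80* and *Cd274*, for which the read ratio of DM HSPC over neutrophils was nearest to 1 (0.623 and 1.18), had an r of 0.977, while *Cd80* and *Il12b* had an r of 0.510. These values largely reflect the separation of 2 groups of libraries, which the genes share.

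Among 8561 genes that passed the filter and reached 2 RPKM in some library, the closest in pattern over the 10 libraries were listed for each of the 10. *Fscn1* and *Kynu* were closest to *Ccr7* (r = 0.999 each), and *Kynu* and *Xcr1* to *Fscn1* (r = 0.9998 each). *Kynu*, an enzyme of tryptophan breakdown, averaged 2.51 RPKM in DM HSPC and 0.0427 RPKM in WT HSPC. *Cdk14* and *Ciita*, the transactivator of MHC class II genes, were closest to *Cd83*, and *Ciita* averaged 75.6 RPKM in DM HSPC and 0.171 RPKM in WT HSPC. *Havcr2*, which encodes the checkpoint receptor TIM-3, and *Adgra2* were closest to *Ccl22*. *Havcr2* averaged 37.9 RPKM in DM HSPC and 0.148 RPKM in WT HSPC.

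*P2ry14* and *Klri1* were closest to *Il12b*, and *Gprc5c* and *Dbn1* to *Cd40*. *Ppt1*, a lysosomal enzyme, followed *Cd86* and *Relb* (r = 0.999 each) and averaged 191 RPKM in DM HSPC, 16.3 in neutrophils and 6.61 RPKM in WT HSPC. *Nfkbia*, the NF-kB inhibitor, and *Ier5* were closest to *Cd80* (r = 0.999 and 0.998). On the deposited scale *Nfkbia* averaged 51.9 RPKM in DM HSPC, 51.6 in neutrophils and 9.64 RPKM in WT HSPC. Scaling divides by 1.01 in both DM libraries and by 0.674 and 0.676 in neutrophils, which puts neutrophils above DM HSPC for *Nfkbia*. *Ap3m2* and *Lrch1* were closest to *Cd274* (r = 0.997 each).

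The remaining genes of NF-kB signalling were followed as a list of 19, of which 18 were tested in HSPC. This and the lists below were also chosen with earlier results of these data known. Over all genes tested against WT HSPC, 38.6% rose and 38.3% fell in DM HSPC, and 32.4% and 28.7% with no filter. The shares were 17.6% and 20.7% in Npm1c HSPC, 8.1% and 9.81% in Flt3-ITD HSPC, and 45.5% and 44.7% in neutrophils. Of the 18, 16 rose and 0 fell in DM against WT HSPC, with a median log2 change of 1.53 against -0.01 over all genes. Of the 18, 4 reached the filter only through DM HSPC (*Bcl3*, *Map3k14*, *Traf1* and *Tnfaip3*) and so had to differ. With no filter, 16 of 19 rose and 0 fell. On the deposited scale 13 rose and 2 fell, with *Rela* and *Traf2* turned in sign, and under quantile normalization 13 rose and 1 fell. *Traf1*, a signalling adaptor and NF-kB target, averaged 4.83 RPKM in DM HSPC and 0.0498 RPKM in WT HSPC (3.45 ± 0.05, SE, log2, adjusted p = 7.27e-09, limma). *Tnfaip3*, which encodes the feedback inhibitor A20, averaged 4.79 RPKM in DM HSPC and 0.599 RPKM in WT HSPC (2.53 ± 0.05, SE, adjusted p = 2.76e-08, limma). *Nfkb2*, whose p52 product partners Relb, averaged 10.2 RPKM in DM HSPC and 1.98 RPKM in WT HSPC (2.43 ± 0.06, SE, adjusted p = 6.38e-08, limma).

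In neutrophils, 18 of 19 of these NF-kB genes rose against WT HSPC and 0 fell, with a median of 1.13 against 0.01. Without the scaling 12 rose and 4 fell, with *Traf2*, *Traf6*, *Nfkbib* and *Ikbkb* turned in sign. *Birc3* (3.13 ± 0.07), *Nfkbia* (3.25 ± 0.08) and *Bcl3* (3.09 ± 0.08, SE, log2) had the smallest adjusted p, at most 1.48e-09 (limma). In Npm1c HSPC 2 rose and 3 fell of 18, and on the deposited scale 0 rose and 11 fell, and in Flt3-ITD HSPC 0 rose and 2 fell.

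Of 13 other costimulatory and coinhibitory ligands found, 7 were tested, of which 5 rose and 2 fell in DM against WT HSPC, with a median of 1.81. Of the 7, *Pdcd1lg2* and *Tnfsf9* reached the filter only through DM HSPC. With no filter, 10 of 13 rose and 2 fell. *Icam1*, the adhesion ligand that holds dendritic cells and T cells together, averaged 36.2 RPKM in DM HSPC and 2.49 RPKM in WT HSPC (3.96 ± 0.10, SE, log2, adjusted p = 8.08e-08, limma). On the deposited scale, *Icosl*, the ligand of Icos, averaged 29.6 RPKM in DM HSPC, 19.8 in neutrophils and 0.983 RPKM in WT HSPC (DM against WT 4.65 ± 0.16, SE, adjusted p = 3.55e-07, limma). Scaling over all libraries divides by 1.01 in both DM libraries and by 0.674 and 0.676 in neutrophils, which brings DM HSPC and neutrophils closer for *Icosl*. *Pdcd1lg2* (PD-L2), the second ligand of Pdcd1, averaged 1.85 RPKM in DM HSPC and 0.270 RPKM in WT HSPC (1.81 ± 0.08, SE, adjusted p = 1.11e-06, limma). The genes that fell were *Lgals9* and *Tnfsf14*. In neutrophils 4 rose and 3 fell, among them *Tnfsf14* at 37.7 RPKM in neutrophils and 3.71 RPKM in WT HSPC, and on the deposited scale 3 rose and 4 fell, with *Icam1* turned in sign. In Npm1c HSPC 1 rose and 3 fell, on the deposited scale 0 and 4, and in Flt3-ITD HSPC 0 rose and 1 fell, on the deposited scale 0 and 2.

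Of the T cell receptors for these ligands, 2 of 8 reached the filter, both only through DM HSPC, so that their rise was fixed by the filter. With no filter, 5 of 8 rose in DM against WT HSPC and 0 fell. Among the 5 were low genes: *Cd40lg* averaged 0.0173 RPKM in DM HSPC and 0 RPKM in WT HSPC. *Ctla4* averaged 0.190 RPKM in DM HSPC and 0.0991 RPKM in WT HSPC, and *Icos* 0.591 RPKM in DM HSPC and 0.183 RPKM in WT HSPC. *Cd28*, the receptor of Cd80 and Cd86, was at 0.442 RPKM in DM HSPC and 0.697 RPKM in WT HSPC and did not pass (adjusted p = 0.262, limma, no filter). *Il12rb2*, a subunit of the interleukin 12 receptor, averaged 4.48 RPKM in DM HSPC and 0.377 RPKM in WT HSPC. *Pdcd1*, the receptor of Cd274, averaged 2.08 RPKM in DM HSPC and 0.105 RPKM in WT HSPC. Neither passed in Npm1c HSPC, Flt3-ITD HSPC or neutrophils after scaling.

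Of 6 chemokines tested, 6 rose in DM against WT HSPC, with a median of 3.58. Of these, *Ccl5*, *Ccl17*, *Cxcl9* and *Cxcl16* reached the filter only through DM HSPC and so had to differ. With no filter, 7 of 7 rose. *Cxcl16* averaged 11.97 RPKM in DM HSPC and 0.0794 RPKM in WT HSPC (4.62 ± 0.08, SE, log2, adjusted p = 1.36e-08, limma). *Ccl5* averaged 27.0 RPKM in DM HSPC and 0.504 RPKM in WT HSPC, and *Cxcl9*, an interferon-induced chemokine that attracts Cxcr3-bearing T cells, 6.86 RPKM in DM HSPC and 0.0680 RPKM in WT HSPC. *Ccl17*, which shares the receptor Ccr4 with Ccl22, averaged 2.27 RPKM in DM HSPC and 0.346 RPKM in WT HSPC (1.93 ± 0.12, SE, adjusted p = 8.35e-06, limma). In Npm1c HSPC 2 rose and 0 fell, in Flt3-ITD HSPC 2 and 0, and in neutrophils 5 and 0, on the deposited scale 4 and 1.

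Of 5 other cytokine genes tested, 5 rose in DM against WT HSPC, with a median of 2.39. Of these, *Il18*, *Tnf* and *Il1b* reached the filter only through DM HSPC and so had to differ. With no filter, 8 of 11 rose and 1 fell, with a median of 0.46. The gene that fell was *Il12a*, which encodes the p35 partner of Il12b in interleukin 12, at 0.242 RPKM in DM HSPC and 0.888 RPKM in WT HSPC (-0.73 ± 0.09, SE, log2, adjusted p = 0.000734, limma, no filter). *Il6* was at 0.0711 RPKM in DM HSPC and 0.172 RPKM in WT HSPC and did not pass (adjusted p = 0.0541, limma, no filter). *Il18* averaged 12.7 RPKM in DM HSPC and 0.419 RPKM in WT HSPC (4.10 ± 0.10, SE, log2, adjusted p = 8.52e-08, limma). *Tnf* averaged 2.32 RPKM in DM HSPC, 13.4 in neutrophils and 0.291 RPKM in WT HSPC, and *Il1b* 3.52 RPKM in DM HSPC, 82.3 in neutrophils and 0.286 RPKM in WT HSPC. In neutrophils 6 of 6 tested rose against WT HSPC, of which *Il27* reached the filter only through neutrophils. With no filter, 9 of 11 rose and 1 fell, where 36.8% of all genes rose and 34.3% fell. In Npm1c HSPC 0 rose and 2 fell, and in Flt3-ITD HSPC 0 passed.

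Of 11 other genes of mature dendritic cells found, 7 were tested, and 7 rose in DM against WT HSPC, with a median of 2.57. Of these, *Il4i1*, *Cacnb3*, *Aldh1a2*, *Tbc1d4* and *Nudt17* reached the filter only through DM HSPC and so had to differ. With no filter, 10 of 11 rose and 0 fell. *Cacnb3* averaged 7.62 RPKM in DM HSPC and 0.0227 RPKM in WT HSPC (4.13 ± 0.06, SE, log2, adjusted p = 7.68e-09, limma), and *Il4i1*, a secreted amino acid oxidase, 3.47 RPKM in DM HSPC and 0.179 RPKM in WT HSPC. *Marcksl1* rose in each of the 4 groups set against WT HSPC, at 12.1 RPKM in Npm1c HSPC, 15.3 in Flt3-ITD, 33.3 in DM and 56.9 in neutrophils, against 9.90 RPKM in WT HSPC. In Npm1c HSPC it did not pass on the deposited scale. The list gave 2 higher and 0 lower in Npm1c HSPC, on the deposited scale 0 and 1, 1 and 0 in Flt3-ITD HSPC, on the deposited scale 1 and 1, and 4 and 1 in neutrophils.

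**Figure D4:**
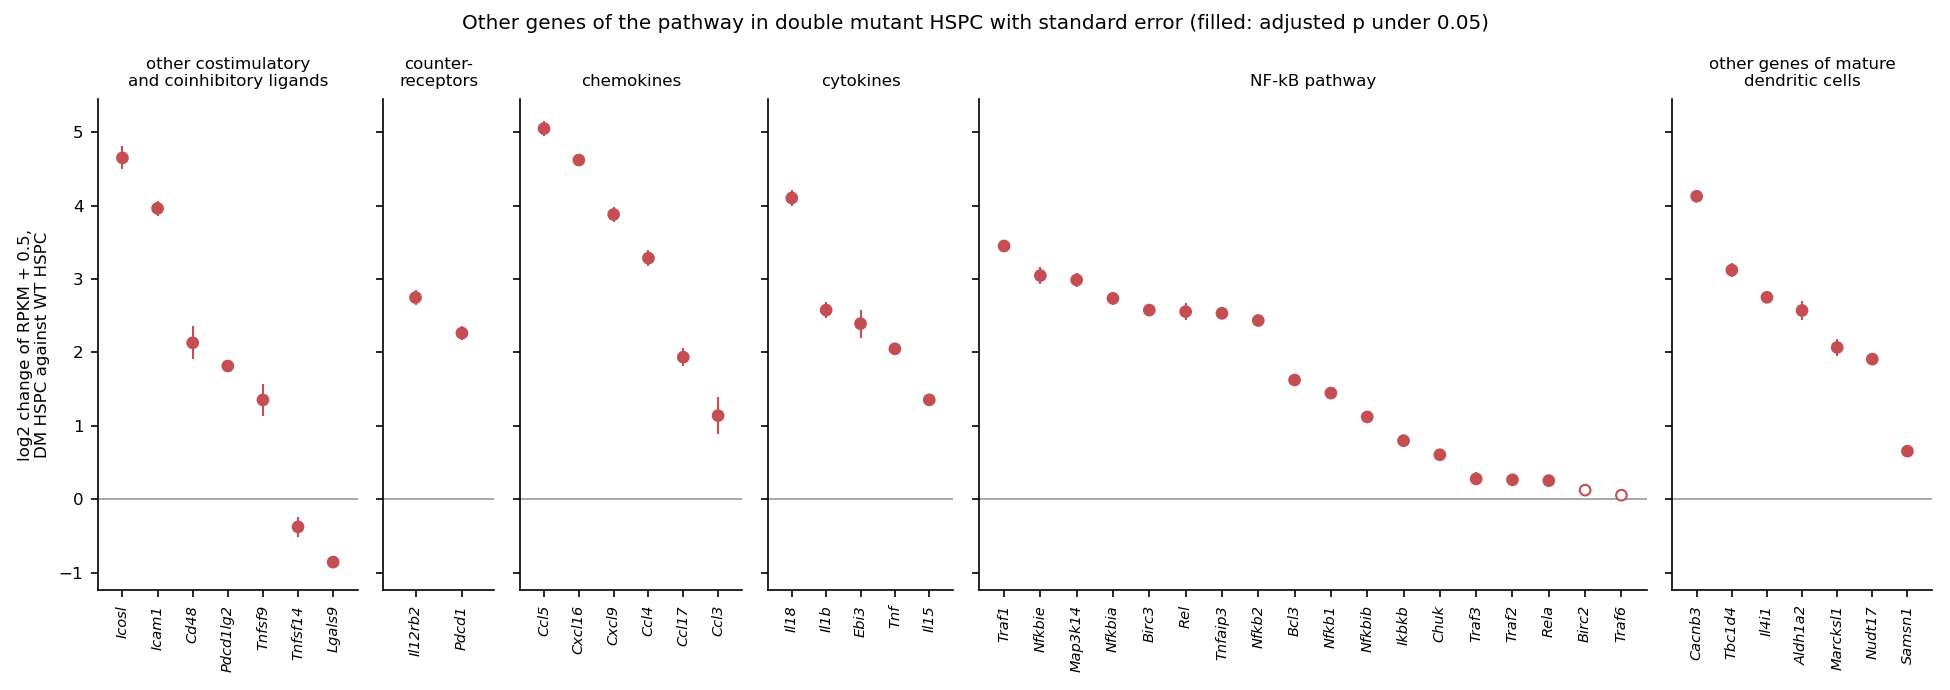
Change of the other genes of the pathway in DM HSPC against WT HSPC, as a difference of log2(RPKM + 0.5) with its standard error, by list; filled points have an adjusted p under 0.05. *Ccl5* lies highest at 5.05, *Lgals9* lowest at -0.86, and the open points are *Birc2* and *Traf6*.

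Of the 10 genes, 5 had a promoter window in the RefSeq table for GRCm38.p6. In the 250 bases before the start site, 1 of the 5 held the PU.1 core GAGGAA (*Il12b*), 1 the AP-1 motif TGANTCA (*Cd80*), 1 the interferon response motif GAAANNGAA (*Cd274*) and 0 the kappaB consensus, read on both strands. Over all 32851 windows of that length the shares were 23.3%, 6.75%, 7.13% and 3.90%. The windows of the genes with the largest and the smallest read ratio of DM over WT HSPC, *Il12b* and *Cd274*, are shown because they lie wholly before the annotated gene, 5′ to 3′ on the plus strand, at chr11:44399813-44400062 and chr19:29367188-29367437. Capitals mark the PU.1 core in *Il12b* (from base -219 to -214 and from -143 to -138, counted back from the start site) and the interferon response motif in *Cd274* (from -76 to -68), and no 2 matches overlap.
Il12b: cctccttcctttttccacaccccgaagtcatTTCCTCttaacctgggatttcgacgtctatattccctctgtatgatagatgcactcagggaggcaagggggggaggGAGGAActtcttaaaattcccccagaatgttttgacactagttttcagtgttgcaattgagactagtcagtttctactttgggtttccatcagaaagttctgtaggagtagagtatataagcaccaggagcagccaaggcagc
Cd274: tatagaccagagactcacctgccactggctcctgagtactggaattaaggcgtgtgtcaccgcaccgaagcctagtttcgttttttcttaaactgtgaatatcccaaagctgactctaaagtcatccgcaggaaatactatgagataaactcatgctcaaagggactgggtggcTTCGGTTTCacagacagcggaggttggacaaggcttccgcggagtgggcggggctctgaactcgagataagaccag
The first match in *Il12b* and the match in *Cd274* are on the minus strand. A match describes these letters and was not tested for binding.

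The markers of other cell types that moved with the 10 genes in DM HSPC were as follows. For all the marker counts below, 38.6% of all genes tested rose and 38.3% fell in DM against WT HSPC. With no filter, 32.4% rose and 28.7% fell. All 10 conventional dendritic markers rose against WT HSPC, 5 of them tested only because of their level in DM HSPC, and none was at 0 in a DM library. Beside *Xcr1*, *Itgax* averaged 88.8 RPKM in DM HSPC and 1.19 RPKM in WT HSPC, *Clec9a* 50.7 RPKM in DM HSPC and 1.19 RPKM in WT HSPC, and *Cd209a*, a marker of type 2 cells, 10.8 RPKM in DM HSPC and 1.28 RPKM in WT HSPC. All 7 MHC class II genes rose, with sums of 7195 and 7148 RPKM in DM HSPC, against 48.3 and 47.1 RPKM in WT HSPC.

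Monocyte and macrophage markers summed to 710.0 and 706 RPKM in DM HSPC, against 86.2 and 86.1 RPKM in WT HSPC, with 8 of 10 higher and 0 lower. *Mpeg1*, which dendritic cells also express, gave 579 RPKM of the DM sum, while *Csf1r* averaged 8.04 RPKM in DM HSPC and 8.97 RPKM in WT HSPC (adjusted p = 0.18, limma). Plasmacytoid dendritic cell markers summed to 78.0 and 78.9 RPKM in DM HSPC, against 31.5 and 30.7 RPKM in WT HSPC, with 2 of 3 tested higher, and with no filter 5 of 6. *Siglech*, the defining marker of that cell, was at 0.701 RPKM in DM HSPC and 0.207 RPKM in WT HSPC.

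B cell markers summed to 11.2 and 16.0 RPKM in DM HSPC, against 9.34 and 9.91 RPKM in WT HSPC, with 1 of 4 tested higher and with no filter 5 of 10, and *Cd79a* averaged 3.30 RPKM in DM HSPC and 2.91 RPKM in WT HSPC. For B cells these counts lie near the shares over all genes, 38.6% higher among those tested and 32.4% with no filter. T and NK cell markers summed to 21.6 and 21.4 RPKM in DM HSPC, against 41.8 and 42.9 RPKM in WT HSPC, with 2 of 3 tested higher and 1 lower, and with no filter 7 of 9 higher and 0 lower. Only 1 of the 9 reached 1 RPKM in each WT HSPC library, and 3 in each DM library, so the lower sum does not follow the list as a whole. *Cd3e* averaged 0.336 RPKM in DM HSPC and 0.0550 RPKM in WT HSPC. Mast cell and basophil markers summed to 6.03 and 9.08 RPKM in DM HSPC, against 465 and 486 RPKM in WT HSPC, with 5 of 5 lower. Stromal and endothelial markers summed to 2.08 and 2.20 RPKM in DM HSPC, against 9.91 and 10.4 RPKM in WT HSPC, with 3 of 3 tested lower, and with no filter 4 of 6 lower and 2 higher. Neutrophil markers summed to 104 and 88.4 RPKM in DM HSPC, against 77.8 and 59.2 RPKM in WT HSPC, with 2 of 10 lower. The part of the dendritic and monocyte markers in the rise of the 10 genes was not tested.

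**Figure D5:**
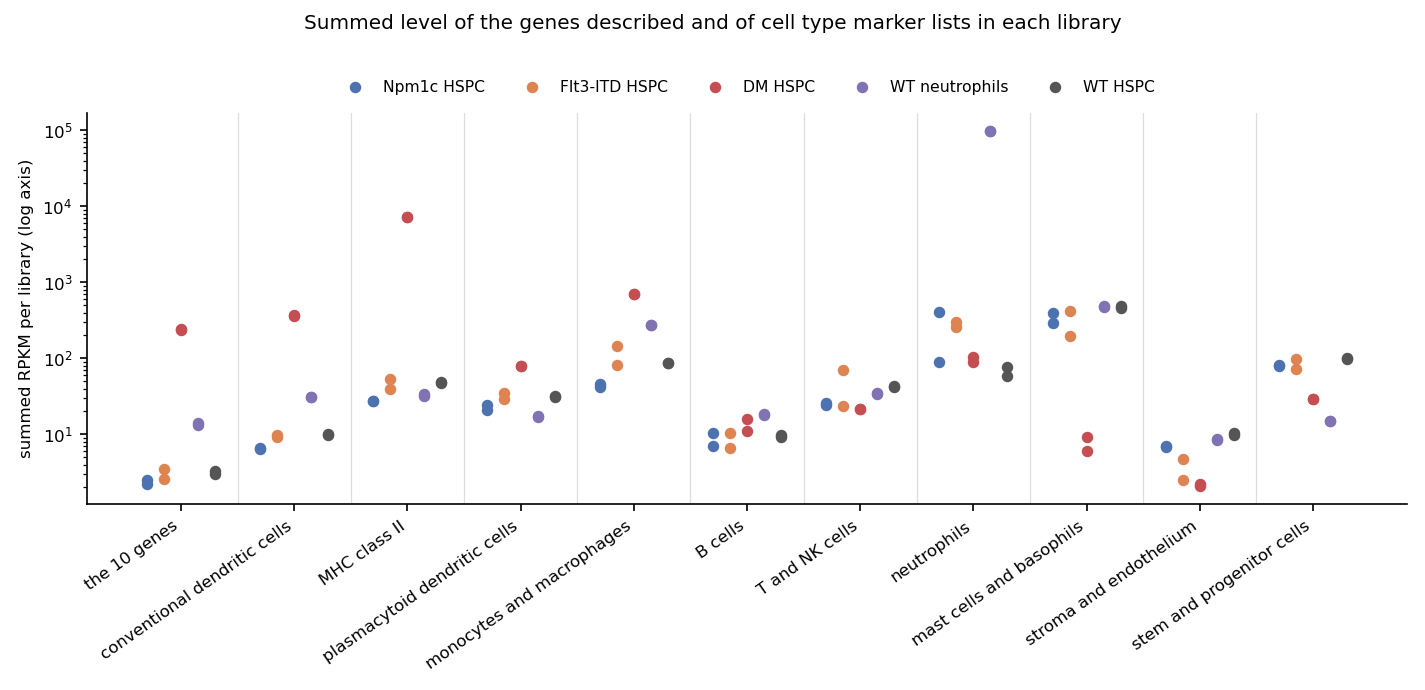
Summed RPKM of the 10 genes and of 10 marker lists in each library on a log axis, in Npm1c HSPC, Flt3-ITD and DM HSPC, WT neutrophils and WT HSPC; points are libraries. The 10 genes sum to 243 and 235 RPKM in DM HSPC, against 3.31 and 3.04 RPKM in WT HSPC, and the dendritic and MHC class II lists are highest in the same DM libraries.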

How the data were processed

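RNA-seq of 10 mouse bone marrow libraries was used, 2 in each of 5 groups. Lineage-negative cells and neutrophils were isolated with magnetic kits, RNA was depleted of ribosomal RNA, and a directional kit was used for the libraries, per the labels' protocols. The authors deposited RPKM values for each library. STAR 2.4.0, HTSeq, DiffBind and mm10 stand, with no stated role, in the submitters' processing notes. Counting settings, including strand, gene annotation and shared reads, are not given in the sources used.

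The 10 genes and all lists were chosen with earlier results of these data known, and named by rule: the 10 genes, up to 3 genes per list with the smallest adjusted p (*Ccl17* was added for its shared receptor, and genes whose sign or call turned were added after their values were seen), and the 2 closest in pattern per gene. Whole reads were recovered from the RPKM steps for 16655 of 16655 genes above 0 in at least 2 libraries, within 0.02 reads. Genes reaching 1 RPKM in 2 or more of the libraries fitted were kept. The test was limma 3.58.1 under R 4.3.3, with a variance trend, on log2(RPKM + 0.5) in 8 HSPC libraries (9702 genes) or all 10 for neutrophils (10174 genes). Median-of-ratios scaling came first. The fit and the recovery were tested on simulated data. Alternatives were deposited values, quantile normalization, pseudocounts of 0.1 and 1, no filter, fewer groups, a replicate block, each library left out, and voom on the recovered reads. Gene positions came from GENCODE M21 on GRCm38, where 16158 symbols matched. Nothing was measured on protein, so levels are of RNA.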

Additional observations from a re-analysis of the deposited data

Results flagged for a closer look

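The interaction of both mutations, that is the change in DM HSPC beyond the sum of the changes in Npm1c and Flt3-ITD HSPC, passed for each of the 10 genes (limma, 2 libraries per group). It was 7.07 for *Cd83*, 6.03 for *Ccr7*, 6.01 for *Cd86*, 5.39 for *Ccl22*, 4.96 for *Fscn1*, 3.84 for *Il12b*, 3.60 for *Cd80*, 2.58 for *Relb*, 2.43 for *Cd40* and 2.13 for *Cd274* on the log2(RPKM + 0.5) scale. These values were set apart because the fitted change with 1 mutation differed with the other present. Of the 10 genes, 9 reached the filter only through the DM libraries and so had to differ. Whether the label and gate of the DM libraries held was not tested. For 9 of the 10 genes the levels in the other HSPC libraries were at or under 0.756 RPKM, so the changes of the single mutants were small beside those of DM HSPC. *Cd274* is the exception, at 1.35 to 1.97 RPKM in the 6 other HSPC libraries.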

How the results depend on the processing

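The changes of the 10 genes in DM HSPC, against WT, Npm1c and Flt3-ITD HSPC and as an interaction, passed in the same direction under every alternative run, leave-one-out included, so those 4 counts stayed at 10. The calls in the single mutants did not hold. In Npm1c HSPC 1 gene passed after scaling, 3 on the deposited values, 2 with only the groups compared, 0 under quantile normalization, with a pseudocount of 1 and with no filter, and 0 to 1 with 1 library left out. In Flt3-ITD HSPC 1 passed after scaling, 2 on the deposited values, with a pseudocount of 0.1 and with voom on the recovered reads (chosen after seeing the data), 0 with only the groups compared and 0 to 4 with 1 library left out. In neutrophils 7 passed after scaling and 4 on the deposited values. Of 870 values, for 70 changes of single genes over the alternatives, 818 kept direction and side of the threshold, 14 lost the threshold, 13 passed it newly and 25 reversed, all 25 with an adjusted p over 0.05. Deposited values reversed *Ccr7* (-0.048) and *Cd40* (-0.0143) in Npm1c HSPC and *Ccl22* (-0.0251) and *Il12b* (-0.0195) in neutrophils. Quantile normalization reversed *Fscn1* (0.0243) and *Il12b* (0.0113) in Npm1c HSPC, *Cd40* (-0.000228) in Flt3-ITD HSPC, and *Fscn1* (-0.0042), *Cd40* (-0.0563), *Ccl22* (-0.13) and *Il12b* (-0.0637) in neutrophils, and voom reversed *Cd40* (-0.11) in Npm1c HSPC. With 1 library left out, values that changed sign ran in Npm1c HSPC from -0.0180 to 0.15 (*Ccr7*), -0.0543 to 0.0683 (*Cd40*), -0.00962 to 0.38 (*Cd80*), -0.059 to 0.0246 (*Fscn1*), -0.0392 to 0.0179 (*Il12b*) and -0.10 to 0.00116 (*Relb*). In Flt3-ITD HSPC they ran from -0.16 to 0.0975 (*Cd83*), -0.0955 to 0.00112 (*Cd86*) and -0.0323 to 0.00893 (*Relb*), and in neutrophils from -0.0224 to 0.0291 (*Il12b*). The causes were not tested. With the replicate number as a block, the count in Npm1c HSPC was 0, and no other count of calls changed by over 1.5 times. Numbers alone link the libraries: same-numbered libraries had correlations of their deviations from -0.11 to 0.09. With 1 to 105 reads of 9 of the 10 genes in each HSPC library other than DM, counting error alone left wide intervals for some ratios, such as 0.160 to 2.94 for *Il12b* in Npm1c over WT HSPC.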
